A study of Homo sapiens with 6 samples.

Results

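TNFAIP8, a cytosolic inhibitor of apoptosis first described as a transcript induced by tumour necrosis factor (TNF), was examined together with 9 genes of death receptor signalling in MM.1S cells. MM.1S is an established human multiple myeloma line. The 10 genes were TNFAIP8, the receptors FAS, TNFRSF10A, TNFRSF10B, TNFRSF1A and LTBR, the ligand TNFSF10, the adaptors FADD and TRADD, and the kinase RIPK1. TNFAIP8 was chosen by its enzastaurin over untreated log2 ratios on these arrays, where it was among the few genes past the test over all genes, and the others were added for their place in the pathway. The ratios of the members are therefore given as a description, with no p-value. All probe sets that the platform annotation pairs with a single symbol of this list were used, 18 in all. They covered 8 of the 10 genes, among 11963 genes in the series with such a probe set. TNFRSF10A and RIPK1 had no such probe set and were not analysed here.

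Cells had been kept for 3, 6 or 12 h with enzastaurin, which inhibits protein kinase C beta, or left untreated over the same times. Each treatment and time had 1 array, 3 with enzastaurin and 3 untreated. No dose is given in the sources used here, and the labels do not say whether the cultures were separate. Every level is an Affymetrix MAS5 intensity, a linear brightness per probe set. Every ratio is the log2 of enzastaurin over untreated at the same time, and its SD is taken over the 3 times, so it holds any real change with time. At a single time there is no replicate. In bulk RNA, fewer cells that make a transcript and less of it in each cell cannot be told apart.

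Death receptors are members of the TNF receptor superfamily that carry a cytoplasmic death domain. FAS and the TRAIL receptors recruit FADD, which binds and activates CASP8. TNFRSF1A first recruits TRADD and RIPK1, which lead to NF-kappaB and JNK signalling and can lead to cell death when that arm is blocked. TNFAIP8 is described as an NF-kappaB target that lowers caspase activity. In multiple myeloma NF-kappaB is often active downstream of TNF family receptors.

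The plasma cell genes marked the line as labelled, and 7 of 8 reached an intensity of 200. None of the 18 T cell, NK cell, monocyte and stromal marker genes did, on the brightest probe set of each. The summed intensity of the 4 monocyte markers was 79.6 to 117 with enzastaurin and 74.0 to 123 in untreated cells, and that of the 5 T cell markers was 142 to 176 and 114 to 133. The median marker had a mean intensity of 27.5 for monocytes and 27.7 for T cells, and this brightness is used below as that of absent markers. Probe sets for ribosomal RNA divided the pairs of arrays. They averaged 9.99, 3.79 and 3.02 (mean log2 intensity) with enzastaurin at 3, 6 and 12 h, against 3.39, 11.98 and 9.29 on the untreated arrays. The enzastaurin side thus had more of this signal at 3 h and less at the later times. For ACTB the 3' over 5' probe set difference, in log2 units, was at or below 0.86 with enzastaurin at 6 h and 12 h, and at or above 1.16 on the untreated arrays at these times.

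Promoter sequence is shown for TNFAIP8, the member with the largest absolute mean ratio, and for FAS, a member with ratios of the other sign at 6 h and 12 h. RefSeq lists 3 start regions for TNFAIP8 in GRCh38.p14, and the arrays do not tell which was in use. The windows are the 250 bases before each start on the plus strand. The first TNFAIP8 window is chr5:119268509-119268758, the last is chr5:119355769-119356018, and the FAS window is chr10:88990548-88990797. Capitals mark matches to the motifs listed after the sequences.

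TNFAIP8 first start: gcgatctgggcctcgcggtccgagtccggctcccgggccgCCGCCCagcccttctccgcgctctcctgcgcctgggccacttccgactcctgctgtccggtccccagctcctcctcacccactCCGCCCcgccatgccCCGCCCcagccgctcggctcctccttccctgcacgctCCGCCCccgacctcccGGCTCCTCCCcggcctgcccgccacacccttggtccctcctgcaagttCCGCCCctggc

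TNFAIP8 last start: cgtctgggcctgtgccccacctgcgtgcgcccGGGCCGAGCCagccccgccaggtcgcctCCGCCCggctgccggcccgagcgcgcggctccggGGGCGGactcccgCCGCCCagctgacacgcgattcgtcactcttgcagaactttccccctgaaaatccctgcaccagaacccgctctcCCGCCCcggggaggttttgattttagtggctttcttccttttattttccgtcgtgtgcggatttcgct

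FAS first start: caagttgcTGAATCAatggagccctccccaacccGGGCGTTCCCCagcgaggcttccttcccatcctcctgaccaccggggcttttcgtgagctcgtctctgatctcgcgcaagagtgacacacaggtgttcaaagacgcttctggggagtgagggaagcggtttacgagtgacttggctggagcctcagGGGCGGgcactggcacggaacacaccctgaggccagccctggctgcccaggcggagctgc

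Motifs were searched on both strands in all 35116 RefSeq windows of this length. They were the NF-kappaB-like GGGNNNNNCC, the AP-1 site TGANTCA, the cyclic AMP element TGACGTCA, the ATF4-type TGATGNAA and the GC box GGGCGG. The first TNFAIP8 window held 5 GC boxes and 1 NF-kappaB-like match, and the last held 4 and 1, with no overlap between them. A window between them, at chr5:119354523-119354772, had 29.2% G or C and no match, against 76.0% and 67.2% in the outer windows and a median of 58.0% over all windows. The printed FAS window held 2 overlapping NF-kappaB-like matches, 1 AP-1 match and 1 GC box, at 62.8% G or C. RefSeq lists 3 FAS start regions as well. The window at chr10:88990664-88990913, which overlaps the printed one, held 1 GC box and no other match, and that at chr10:88991181-88991430 held 2 NF-kappaB-like matches, 2 GC boxes and no AP-1 match. These letters are common, since 54.4% of all windows held the NF-kappaB-like motif and 42.6% the GC box. The AP-1 motif stood in 6.57% of windows, the cyclic AMP element in 1.65% and the ATF4-type motif in 3.14%. A match is a description of sequence, and none of these windows was measured here.

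TNFAIP8 transcript was lower with enzastaurin at every time, by 3.75-fold on its brighter probe set and 3.51-fold on the other (geometric means over the 3 times). On 210260_s_at its intensity was 554, 457 and 464 with enzastaurin at 3, 6 and 12 h, against 1465, 2078 and 2041 on the untreated arrays. On 208296_x_at it was 499, 372 and 481 with enzastaurin, against 1270, 1648 and 1845 on the untreated arrays. All 3 enzastaurin arrays lay below all 3 untreated arrays on both probe sets, with no overlap. The log2 ratios were -1.40, -2.18 and -2.14 on the first probe set (mean -1.91 ± 0.44, SD, n = 3) and -1.35, -2.15 and -1.94 on the second (-1.81 ± 0.42). The second probe set carries the suffix for probes that can also bind other transcripts, and the log2 intensities of both followed each other over the 6 arrays (r = 0.99).

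**Figure D1:**
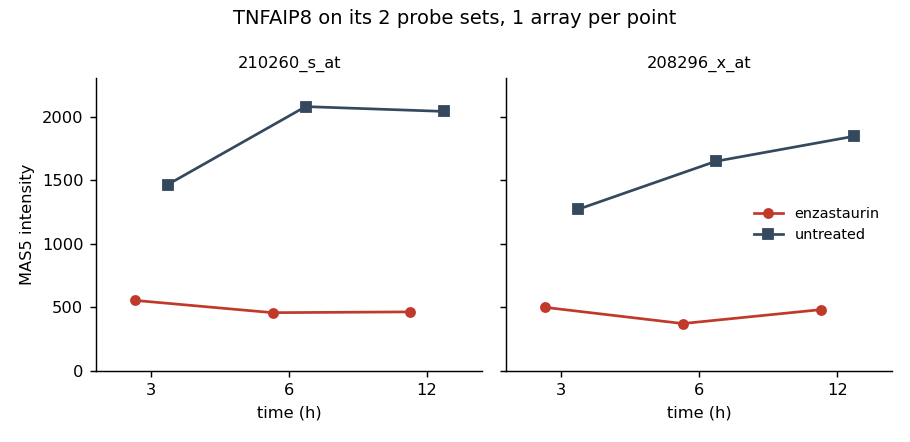
TNFAIP8 intensity (linear MAS5 units, axis from 0) against time in hours on its 2 probe sets, with enzastaurin as circles and untreated as squares, 1 array per point. The enzastaurin arrays lay between 372 and 554 over both probe sets, and the untreated arrays between 1270 and 2078.

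The order of the TNFAIP8 levels was read on the brighter probe set. The enzastaurin arrays stood lowest, with 6 h and 12 h next to each other and 3 h above them. The untreated array at 3 h came next, and those at 12 h and 6 h were highest and near each other. With single arrays, neighbours in this order cannot be separated by a replicate spread. In untreated cells the level at 12 h was 0.48 log2 units above that at 3 h, and with enzastaurin it was 0.26 units below. Both changes widened the gap between the groups after 3 h. On the other probe set the order within each treatment differed, with the enzastaurin array at 12 h beside that at 3 h and the untreated array at 12 h highest. There the change of 12 h over 3 h was -0.05 log2 units with enzastaurin and 0.54 in untreated cells.

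Among the 6838 genes kept by the intensity filter, a geometric mean of at least 63.3, TNFAIP8 had the 5th lowest mean log2 ratio. It was at least 2-fold lower at 3, 6 and 12 h alike, which held for 0.132% of the kept genes. All enzastaurin arrays below all untreated arrays was more common, at 7.18%. In limma, fitted over all 6838 genes with the time point as a block, 4 genes passed an adjusted p of 0.05, or 0.0585%. Of the 6 kept members 1 passed, TNFAIP8, and since it was picked on this contrast nothing is read from that count. The call depended on the arrays, since 0 genes passed when the pair at 6 h or at 12 h was left out and 247 when that at 3 h was. TNFAIP8 was also not called with equal medians of all probe sets, with no filter or with no intensity trend in the prior, and its second probe set was not called when every probe set was tested. Its mean log2 ratio was -1.77 with ribosomal RNA signal as a covariate, an alternative added after seeing the data, and lay between -1.77 and -2.16 over all 9 alternatives.

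FAS, the receptor for Fas ligand, had higher values with enzastaurin at 6 h and 12 h. On 204781_s_at, the brightest of its 4 probe sets, it was at 86.2, 194 and 236 with enzastaurin at 3, 6 and 12 h, against 125, 122 and 94.1 on the untreated arrays. The level with enzastaurin was below the untreated one at 3 h, and 2.51-fold above it at 12 h. The groups overlapped, through the enzastaurin array at 3 h. The log2 ratios were -0.54, 0.67 and 1.33 (mean 0.49 ± 0.95, SD, n = 3), so the mean over times was within the spread.

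All 4 FAS probe sets were above the filter and had this sign pattern, negative at 3 h and positive at 6 h and 12 h. The dimmest, 215719_x_at, was at 47.7 to 68.8 on the untreated arrays. It was kept through the enzastaurin arrays at 6 h and 12 h, so it adds little to the pattern. Both 215719_x_at and 216252_x_at carry the suffix for probes that can also bind other transcripts. The ratios at 3 h ran from -0.58 to -0.26, those at 6 h from 0.67 to 1.18 and those at 12 h from 0.26 to 1.33. At 12 h the probe sets thus differed in size, and 204780_s_at had the smallest ratio, at 137 with enzastaurin against 114 in untreated cells. The pairwise correlations of the 4 probe sets over the 6 arrays ran from 0.63 to 0.95. With ribosomal RNA signal as a covariate the FAS coefficient was 0.21, against a mean ratio of 0.49 without it. Single pairs decided its size, since the mean ratio was 1.001 without the 3 h pair, 0.39 without the 6 h pair and 0.07 without the 12 h pair.

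TNFRSF10B, the TRAIL receptor DR5, showed no common direction. On 209295_at it was at 75.4, 89.8 and 82.0 with enzastaurin, against 127, 54.3 and 85.8 on the untreated arrays. The enzastaurin arrays lay inside the range of the untreated arrays, whose own levels differed more from each other. The log2 ratios were -0.75, 0.73 and -0.07 (mean -0.03 ± 0.74). Its other probe sets, at 25.1 to 51.7, were below the filter, and their ratios lay between -0.26 and 0.18. TNFSF10, which encodes the ligand TRAIL, was below the filter on all 3 of its probe sets. The brightest, 202688_at, was at 29.0, 54.8 and 89.1 with enzastaurin, against 60.8, 65.6 and 62.2 on the untreated arrays. The untreated level was steady while the enzastaurin arrays spread around it, from the lowest to the highest of the 6. Its other probe sets did not show this order, with ratios of -0.14, 0.15 and -0.12 on 202687_s_at.

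TNFRSF1A, the main receptor for soluble TNF, had lower values with enzastaurin at 6 h and 12 h. It was at 266, 137 and 121 with enzastaurin, against 278, 183 and 253 on the untreated arrays. The 3 h arrays were close to each other, and the groups overlapped. The log2 ratios were -0.07, -0.42 and -1.06 (mean -0.52 ± 0.51), negative at all 3 times but near 0 at 3 h. LTBR, the lymphotoxin beta receptor that signals to the alternative NF-kappaB pathway, was dim on its only probe set. It was at 27.1, 31.5 and 30.6 with enzastaurin, against 14.3, 21.2 and 20.3 on the untreated arrays. All enzastaurin arrays were above all untreated ones (mean log2 ratio 0.70 ± 0.20). The share of genes in this order was not counted, and 7.18% of kept genes had the reverse order. All 6 LTBR values lay at the brightness of T cell and monocyte markers, and with intensities floored at 32 the ratio was 0. LTBR was below the filter and did not enter the reported fits.

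**Figure D2:**
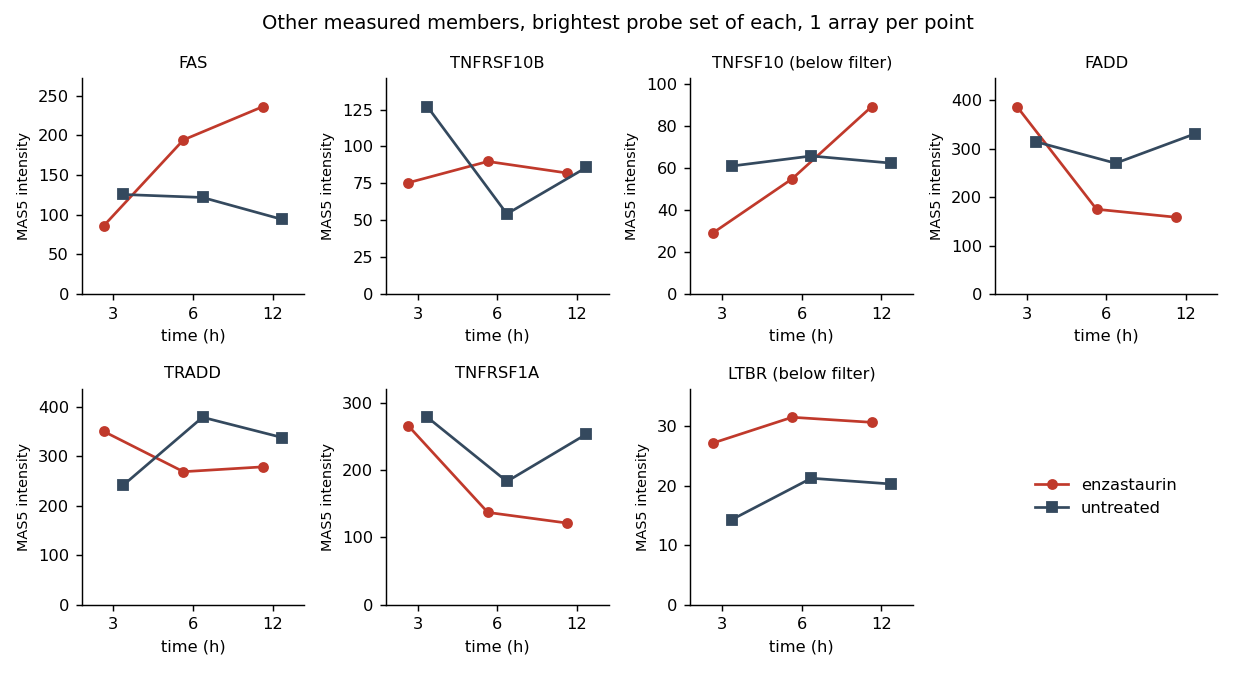
Intensity (linear MAS5 units, axes from 0, a different range in each panel) against time in hours for the 7 other measured members, brightest probe set of each, enzastaurin as circles and untreated as squares, 1 array per point. FAS crossed from below to above the untreated level after 3 h, FADD and TRADD crossed the other way, and LTBR stayed below 32.

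FADD, the adaptor that links FAS and TRAIL receptors to CASP8, was lower with enzastaurin at the later times. It was at 387, 175 and 158 with enzastaurin, against 314, 270 and 331 on the untreated arrays. The enzastaurin array at 3 h was the highest of all 6, and those at 6 h and 12 h were the lowest. The log2 ratios were 0.30, -0.63 and -1.06 (mean -0.46 ± 0.70). TRADD, the adaptor of TNFRSF1A, was at 350.6, 269 and 279 with enzastaurin on 205641_s_at, against 242, 379 and 338 on the untreated arrays. The log2 ratios were 0.54, -0.49 and -0.28 (mean -0.08 ± 0.54). A second probe set, 1729_at, had 0.88, -0.67 and -0.46, and followed the first over the arrays (r = 0.96). In both the untreated array at 3 h was the lowest of the 6. The weakest TRADD probe set, at 7.64 to 32.1, lay at the brightness of absent markers.

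**Figure D3:**
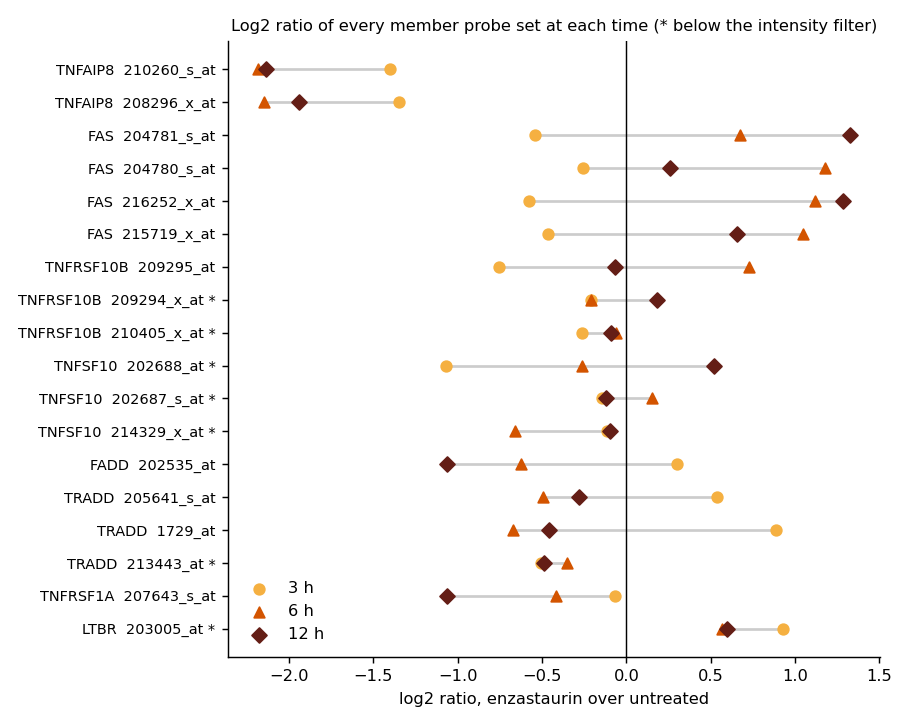
Log2 ratio of enzastaurin over untreated at 3 h (circles), 6 h (triangles) and 12 h (diamonds) for all 18 member probe sets, with a grey line from the lowest to the highest and a star for probe sets below the intensity filter. The TNFAIP8 ratios all lay at or below -1.35, and the ratios of the 4 FAS probe sets changed sign between 3 h and 6 h.

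The ratios at 3 h were opposite in sign to those at both later times in 3 of the 6 kept members, FAS, FADD and TRADD. Over all kept genes this was the case for 37.5%, so the pattern was common on these arrays. The ribosomal RNA signal divided the pairs in the same way. With it as a covariate the coefficient was -0.26 for FADD, against a mean log2 ratio of -0.46, and 0.10 for TRADD, against -0.08. It was -0.40 for TNFRSF1A, against -0.52, but -0.25 for TNFRSF10B, against -0.03 and so further from 0. This fit left 1 residual degree of freedom, and the part of the ribosomal RNA signal in the sign pattern was not tested. At 12 h, TNFAIP8, FADD and TNFRSF1A were at least 2-fold lower, as were 10.4% of kept genes. FAS was at least 2-fold higher at 12 h, as were 3.88% of kept genes. The median log2 ratio over all kept genes was -0.04, 0.06 and -0.18 at 3, 6 and 12 h.

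The difference between 12 h and 3 h over both treatments was not used to choose the members and could be tested. In limma, 0 of 6838 genes passed, or 0%, and 148 had an unadjusted p under 0.05. No member passed, and the adjusted p was 0.999 for each of the 6. The log2 difference of 12 h over 3 h was 0.11 (SE 0.33) for TNFAIP8, 0.52 (SE 0.45) for FAS and -0.22 (SE 0.43) for TNFRSF10B. It was -0.61 (SE 0.41) for FADD, 0.08 (SE 0.39) for TRADD and -0.63 (SE 0.38) for TNFRSF1A. A ratio that changes with time enters the error of this fit, so the 0 does not show that levels were steady.

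The genes most like TNFAIP8 were found by the Pearson correlation of log2 intensity with its brighter probe set, over the 6 arrays and all kept genes. These 6 points share the treatment difference, so a high value is a description of a common step between the groups. The highest were those of the transcription factor MEF2C (0.994), the proteasome subunit PSMA7 (0.993), C21orf91 (0.990), the Notch target HEY1 (0.988) and the selenium transport protein SELENOP (0.987). Their steps differed in size. PSMA7 was at 2248, 2191 and 2226 with enzastaurin, against 2471, 2512 and 2500 on the untreated arrays, a mean log2 ratio of only -0.17 ± 0.03 (SD, n = 3). MEF2C had -0.55 ± 0.10, SELENOP -1.09 ± 0.14, C21orf91 -1.18 ± 0.43 and HEY1 -1.80 ± 0.56. HEY1 was at 34.4 to 37.7 on the enzastaurin arrays, below the filter and near the brightness of absent markers, against 84.6 to 162 on the untreated arrays. It was kept through the untreated arrays, and the size of its step is not well measured. The most opposite patterns were those of RND3 (-0.987), the proton pump subunit ATP6V0A1 (-0.962) and the receptor subunit IL10RA (-0.960).

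**Figure D4:**
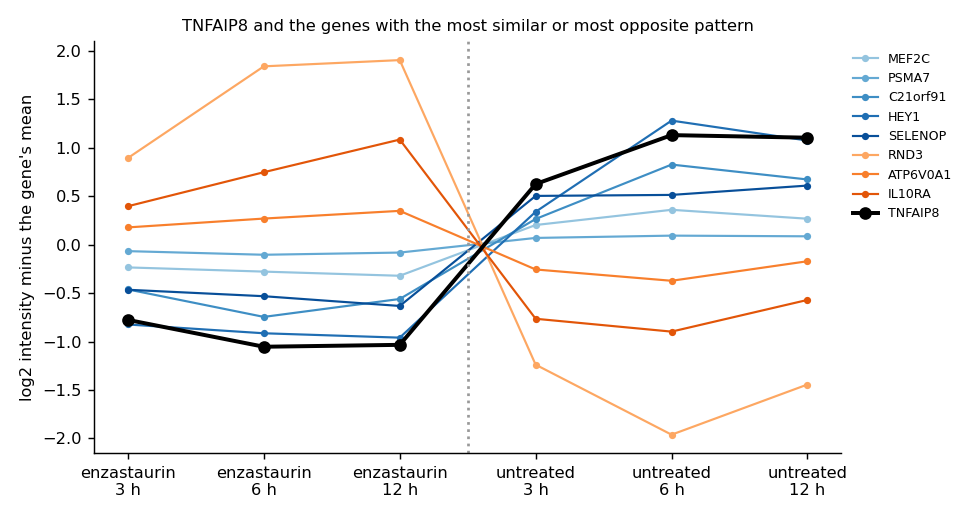
Log2 intensity minus the gene's own mean on the 6 arrays, enzastaurin left of the dotted line and untreated right of it, for TNFAIP8 (black), the 5 genes with the highest correlation (blue) and the 3 with the lowest (orange). All 9 lines step between the treatments, with mean log2 ratios from 3.09 for RND3 to -1.91 for TNFAIP8.

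Pathway genes outside the members were read from lists of 136 genes, of which 109 had a single-symbol probe set and 66 passed the filter. None of the 66 passed the enzastaurin effect test in limma, in either direction. Only 0.0585% of all kept genes passed it, so the 0 is not read as a result about these genes. Of the 66, 34 had a mean log2 ratio above 0. The median of the 66 was 0.04, against -0.05 over all kept genes. In the effect fit a change of the ratio with time counts as error, so the lack of calls does not show that these genes were unaffected. The slope of the ratio per doubling of hours passed in 98 of 6838 genes, or 1.43%, and in 4 of the 66, with 1 upward and 3 downward. The errors of the slopes come from a variance shared over genes along a trend with mean intensity, so brighter genes could have smaller errors. With equal medians of the kept genes, 0 slopes passed. Of the 4 pathway genes, those that passed were TNFRSF17 alone with quantile normalization, CASP8 and TNFRSF17 with no filter, and all but TRAF4 with a floor of 32.

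The initiator caspase CASP8, which FADD activates, was the gene with the upward slope. It was at 399, 1011 and 1954 with enzastaurin at 3, 6 and 12 h, against 597, 562 and 380 on the untreated arrays. The log2 ratio was -0.58, 0.85 and 2.36 (slope 1.47, SE 0.35, adjusted p = 0.00525 in limma), and a second kept probe set had -0.84, 0.35 and 2.34. So at 12 h the CASP8 ratio was positive while that of FADD was -1.06. In the list of caspases and their control 12 of 16 genes were kept, 3 with a mean ratio above 0, and the median was -0.09. CASP2 had a mean log2 ratio of 0.41 ± 0.77, CASP9 -0.30 ± 0.25 and BID, which caspase 8 cleaves, -0.27 ± 0.74. The other kept CASP9 probe set did not show the lower value, at a mean of 0.02, and the 4 dim CASP2 probe sets had means of -0.28 to 0.12. The kept CASP2 probe set was itself at only 42.9 to 76.0 on the untreated arrays.

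Downward slopes passed in TNFRSF17, TRAF4 and MAP3K5. TNFRSF17, the plasma cell survival receptor BCMA, was at 2970, 2119 and 528 with enzastaurin, against 3003, 4308 and 4474 on the untreated arrays (slope -1.53, SE 0.24, adjusted p = 4.66e-07 in limma). In its list of other TNF receptors 7 of 24 genes were kept and 3 had a mean ratio above 0, with a median of -0.01. EDAR had a mean log2 ratio of 0.96 ± 1.42, TNFRSF1B, the second TNF receptor, -0.87 ± 0.95, and TNFRSF14 0.17 ± 0.26.

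TRAF4, a TRAF family adaptor, was at 177, 108 and 36.6 with enzastaurin, against 121, 146 and 158 on the untreated arrays (slope -1.33, SE 0.39, adjusted p = 0.0489 in limma). With enzastaurin its value at 12 h was near the brightness of absent markers. Its call, close to the threshold, was lost with the floor of 32, although none of its values lay below that floor. A second probe set below the filter had ratios of 0.24, -0.02 and -0.17. The list of adaptors and ubiquitin editing had 15 of 26 genes kept, 9 with a mean ratio above 0, and a median of 0.06. TNFAIP3, the ubiquitin-editing NF-kappaB inhibitor A20, was at 1228, 1505 and 610 with enzastaurin, against 1546, 2450 and 2534 on the untreated arrays. Its log2 ratios of -0.33, -0.70 and -2.05 did not pass (adjusted p = 0.535 in limma). TRAF5 had a mean log2 ratio of 0.67 ± 1.40 and TRAF6 0.43 ± 0.15. TRAF6 was dim, at 55.9 to 67.3 on the untreated arrays.

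MAP3K5, the stress kinase ASK1 that signals to JNK and p38, was at 211, 100.4 and 95.3 with enzastaurin, against 127, 303 and 358 on the untreated arrays (slope -1.32, SE 0.38, adjusted p = 0.0361 in limma). Its other kept probe set had 0.73, -0.70 and -0.94. Of its list for the JNK and p38 arm 5 of 11 genes were kept, 1 above 0, with a median of -0.16. MAP3K11 had a mean log2 ratio of -0.26 ± 0.32, MAPK9 0.25 ± 0.10 and ATF2 -0.16 ± 0.32. The ATF2 probe sets disagreed, since its other kept one had ratios of 0.21, 0.81 and 1.03.

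In the NF-kappaB arm 14 of 16 genes were kept, 9 with a mean ratio above 0, and the median was 0.14. NFKBIA, the inhibitor that NF-kappaB itself induces, was at 607, 760 and 801 with enzastaurin, against 365, 413 and 475 on the untreated arrays. The groups did not overlap, with enzastaurin higher, an order whose share over all genes was not counted. The log2 ratios of 0.73, 0.88 and 0.75 were even over time, but the gene did not pass (mean 0.79, SE 0.28, adjusted p = 0.701 in limma). RELB had a mean log2 ratio of 0.35 ± 0.53, TAB2 0.29 ± 0.69 and RELA 0.27 ± 0.14. Among transcripts that TNF induces in many cells 5 of 18 were kept, 4 above 0, with a median of 0.28. JUNB had 0.69 ± 0.35, ICAM1 0.57 ± 0.23, IRF1 -0.31 ± 0.46 and CCL5 0.28 ± 0.63. TNFAIP8 itself, also TNF-induced, had a negative mean ratio, as did IRF1 of this list and TNFAIP3 of the adaptor list (mean -1.03). NFKBIA of the NF-kappaB arm had a positive one (mean 0.79). The CCL5 mean was above 0 through 3 h alone, with log2 ratios of -0.01 and -0.15 at 6 h and 12 h. JUNB and ICAM1 were above 0 at all 3 times on the probe sets tested. These were dim on the untreated arrays, at 50.5 to 80.0 for JUNB and 59.0 to 78.7 for ICAM1. An ICAM1 probe set below the filter was also above 0 at all 3 times (mean log2 ratio 0.77). Another below the filter had -1.50, 0.76 and -0.57 at 3, 6 and 12 h. With 4 means above 0 and that of IRF1 below 0, the 5 kept TNF-induced transcripts had no single direction against which TNFAIP8 could be set.

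Of TNF superfamily ligands 5 of 17 were kept, 3 above 0, with a median of 0.03. EDA had a mean log2 ratio of -0.74 ± 1.10, CD70 -0.55 ± 0.58, TNFSF9 0.25 ± 0.47 and TNFSF13 0.07 ± 0.24. Of 5 factors reported to act on the TNFRSF10B promoter 3 were kept. DDIT3, which encodes CHOP, had a mean log2 ratio of 1.77 ± 0.59, ATF3 1.63 ± 0.86 and YY1 -0.17 ± 0.30, with adjusted p of 0.132, 0.259 and 0.999 in limma. TNFRSF10B itself was at -0.03 ± 0.74. The other TNFAIP8 family genes TNFAIP8L1, TNFAIP8L2 and TNFAIP8L3 had no single-symbol probe set among the values used here.

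**Figure D5:**
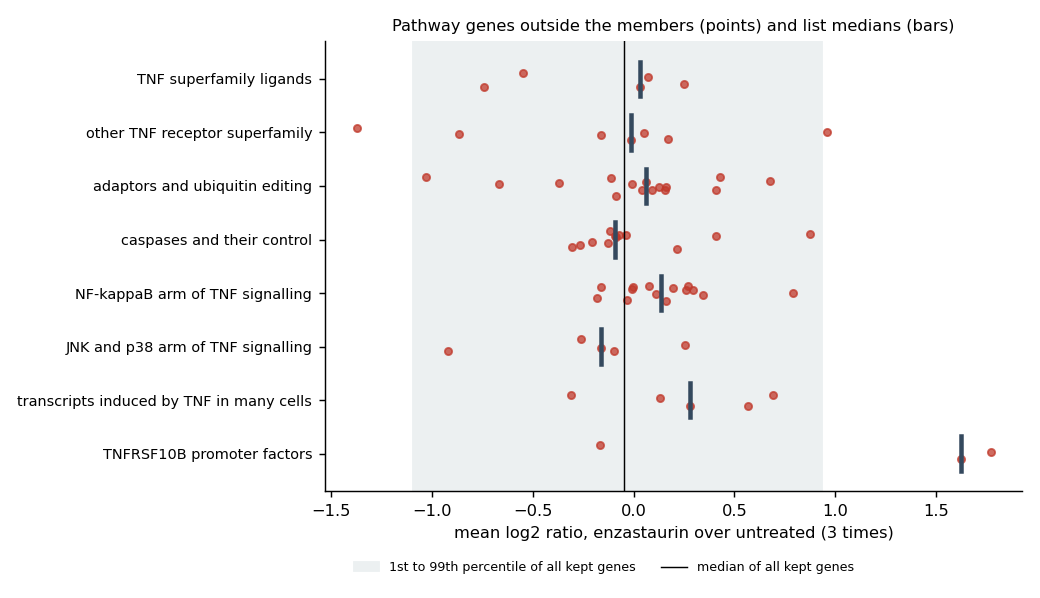
Mean log2 ratio of enzastaurin over untreated over 3 times for each kept pathway gene outside the members (points), by list, with the list median (bars), the median of all kept genes at -0.05 (line) and the range from their 1st to their 99th percentile (grey, -1.09 to 0.94). Only TNFRSF17, EDAR, DDIT3 and ATF3 lay outside the grey range.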

How the data were processed

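Total RNA of MM.1S cells was hybridised to 6 Affymetrix arrays. The deposited intensity values are linear MAS5 signals per probe set, made by the authors per the submitters' processing notes. The sources used here give no version, scaling target or detection calls, and precision is limited by the number of arrays. Of 22215 probe sets that were not controls, 19064 were paired with 1 gene, 1043 with several and 2108 were not listed in the platform annotation. Symbols were updated through RefSeq of GRCh38.p14.

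Intensities were floored at 1 and log2 transformed, and the authors' scaling was kept. The brighter 50 percent of probe sets (geometric mean of at least 63.3) were kept, and the brightest per gene was tested, which left 6838 genes. Fits used limma 3.58.1 in R 4.3.3 with an intensity trend in the prior, the time point as a block, and Benjamini-Hochberg adjustment over all genes. They were also run on simulated data with the same noise level for every gene and no shifts shared within an array. That run therefore does not bear on how the calls depend on these arrays. No p-value rests on replicate arrays. In the effect and the 12 h against 3 h fits, the spread is how far the time-matched ratios differ, shared in part over genes. It may be technical or hold a real change with time. In the slope fit the spread is a variance shared over genes along a trend with mean intensity, and not that of the gene itself.

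The named genes were the members and up to 4 genes per list with the largest absolute mean log2 ratio, with any past a test. The 5 genes most and the 3 least correlated with TNFAIP8 were named as well. Members and lists were chosen with earlier results of these data known.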

Additional observations from a re-analysis of the deposited data

Results flagged for a closer look

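The enzastaurin effect differed with time, by the slope test in limma over 3 times, in 4 pathway genes outside the members as reported, but in 0 of them with equal medians of the kept genes, in TNFRSF17 alone with quantile normalization and in CASP8 and TNFRSF17 with no filter. TRAF4 was also lost with a floor of 32. The slope of the log2 ratio per doubling of hours was 1.47 for CASP8, -1.53 for TNFRSF17, -1.33 for TRAF4 and -1.32 for MAP3K5. Ribosomal RNA probe sets were brighter on the enzastaurin side at 3 h and dimmer on it at the later times, and their part in these slopes was not tested.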

How the results depend on the processing

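The mean log2 ratio of TNFAIP8 moved by less than its SD over times under all 9 alternatives. TNFAIP8 was also among the calls with quantile normalization, a floor of 32, every probe set tested, no time block, no 3 h pair, equal medians of the kept genes and the ribosomal RNA covariate. It was not called without the filter, without the intensity trend, with all probe sets set to 1 median, or without the 6 h or the 12 h pair. Of the other members, LTBR moved by more than its SD, to 0 with a floor of 32. The sign differed from the reported one under 3 alternatives for TRADD, 2 for TNFRSF10B and 1 for TNFSF10.

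The count of genes past the enzastaurin effect test, 4 as reported, was 1 with equal medians of all probe sets and 1 with no filter (in neither case TNFAIP8), 0 with no intensity trend in the prior, 2 with no time block and 74 with the ribosomal RNA covariate. Leaving out a pair of arrays gave 0 to 247, the highest without the 3 h pair and 0 without the 6 h or the 12 h pair. Among pathway genes outside the members the same settings gave 3 with the covariate (ATF3, DDIT3 and TNFRSF17) and 0 to 8 on leaving out a pair. The count of slopes, 98 as reported, was 167 with equal medians of all probe sets, 7 with quantile normalization, 151 with no filter and 0 with equal medians of the kept genes. In pathway genes these gave 7, 1, 2 and 0 slopes, against 4, and a floor of 32 gave 3. The causes were not tested. The count for 12 h against 3 h was 0 under every setting run. The slope could not be fitted without a pair, since no residual degree of freedom would be left. The ribosomal RNA covariate and equal medians of the kept genes were chosen after seeing the data.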
